A study of Mus musculus with 9 samples.

Results

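Add2, Hdc, Btc, Cldn15, Sprr1a, Vtn, Cpa4, Emilin2 and Kitl are 9 genes, of 47728 in the deposited tables, that were selected because their counts were lower in a knockdown of the clock gene Cry1 than in the control or in a knockdown of Cry2. The selection used the measured values of these libraries and stated no threshold, so every difference between the Cry1 knockdown and the others is given below as a description of the genes selected, without a test. The cells were C2C12, a mouse myoblast line that leaves the cell cycle and fuses into myotubes after a change from fetal bovine serum to horse serum with insulin, transferrin and selenium. The groups were control C2C12, C2C12 with a knockdown of Cry1 and C2C12 with a knockdown of Cry2, each collected at day 0, when the medium was changed, and at days 3 and 5 of differentiation. PolyA RNA was sequenced from 1 library for each of the 9 combinations. How the knockdowns were made, and whether a line was a clone or a pool, is not given in the sources used here.

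Cry1 and Cry2 encode cryptochromes, the proteins that close the negative loop of the circadian clock by binding CLOCK and BMAL1 and repressing the genes these activators switch on at E-box sequences. In muscle, the clock factors also take part in the programme of myoblast differentiation. The 9 genes were selected by their counts and not by pathway, and whether they share a pathway was not tested. Btc and Kitl encode growth factors that are made as membrane-bound precursors and shed, Hdc makes histamine, Cpa4 is a zinc carboxypeptidase, Vtn and Emilin2 are secreted adhesion and matrix proteins, and Add2, Cldn15 and Sprr1a are structural proteins of the membrane skeleton, the tight junction and the cornified envelope.

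The libraries held between 4731020 and 6412279 counts. A gene with no count in a library could hold up to 3 counts there, a floor of 0.439 to 0.634 CPM. CPM is a gene's count scaled to a library of fixed normalised size, and intervals and floors cover counting error only. Cry1 was at 8.28, 6.64 and 8.12 CPM on days 0, 3 and 5 in its own knockdown, below the control at 20.5, 15.8 and 17.4 CPM. Cry2 was at 7.25, 8.24 and 16.6 CPM in its own knockdown and at 19.2, 39.5 and 48.8 CPM in the control. In the Cry1 knockdown Cry2 was at 28.7, 37.0 and 67.9 CPM, above the control at days 0 and 5. In the Cry2 knockdown Cry1 was at 13.0, 19.2 and 22.8 CPM, below the control at day 0 and above it later. All 12 muscle markers examined passed the filter on low counts. Their summed level was 3180 CPM at day 0 and 20700 CPM at day 5 in the Cry1 knockdown, against 2480 and 19600 in control cells and 2570 and 21400 with Cry2 knocked down. Des alone held 1630 CPM of the day 0 sum in both the Cry1 knockdown and the control. Among markers named after their values were seen, Myog at day 0 was at 179 CPM in the Cry1 knockdown and 58.5 in the control. Acta1 was at 363 and 116 CPM, and Myf5 went the other way, at 31.3 and 36.6 CPM. Whether the cultures differed in stage at day 0 was not tested. Each genotype has 1 library for each day, and the labels do not say whether its libraries came from separate cultures. A difference between cultures that is shared by the 3 libraries of a genotype cannot be told apart from the knockdown. Nor can fewer cells of a type be told apart from less RNA per cell.

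On mm10 with the GENCODE M21 genes, all 9 genes are protein coding. Add2 (ENSMUSG00000030000) lies at chr6:86028681-86124409 on the plus strand, Hdc (ENSMUSG00000027360) at chr2:126593667-126619299 on the minus strand and Btc (ENSMUSG00000082361) at chr5:91357261-91402994 on the minus strand. Cldn15 (ENSMUSG00000001739) lies at chr5:136966616-136975858 on the plus strand, Sprr1a (ENSMUSG00000050359) at chr3:92483952-92485895 on the minus strand and Vtn (ENSMUSG00000017344) at chr11:78499091-78502324 on the plus strand. Cpa4 (ENSMUSG00000039070) lies at chr6:30568369-30592418 on the plus strand, Emilin2 (ENSMUSG00000024053) at chr17:71252172-71311978 on the minus strand and Kitl (ENSMUSG00000019966) at chr10:100015630-100100416 on the plus strand. An antisense gene, Gm44089, overlaps 3.51% of the exon bases of Add2, and reads from it cannot be told apart without strand. No exon base of the other 8 genes is overlapped by another gene.

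Because E-boxes are where cryptochromes act through CLOCK and BMAL1, the 9 promoters were searched on both strands for 6 motifs, in RefSeq windows (GRCm38.p6) of 300 bases from 250 before to 50 after a gene's start. All 9 genes had a window, and Emilin2 had a pair of them. RefSeq starts can differ from the GENCODE gene ends given above. The E-box CACGTG was in 0 of 9 promoters, against 7.15% of all 32851 promoters. This says only that these letters are not in these windows. The AP-1 motif TGANTCA, the site of FOS and JUN dimers, was in 3 of 9, those of Cldn15, Cpa4 and Sprr1a, against 7.81% of all. The TATA box TATAAA was in 4 of 9, those of Cpa4, Kitl, Sprr1a and Vtn, against 13.6% of all. The D-box TTANGTAA, read by the PAR bZIP factors of the clock, was in that of Sprr1a, against 2.32% of all. The core of the ROR and REV-ERB element TAGGTCA (2.61% of all) and the CRE motif TGACGTCA (1.79% of all) were in none of the 9. These motifs do not contain one another, and the matches did not overlap in the 3 promoters with an AP-1 match. A match is a run of letters and not a measured site. The 3 promoters with an AP-1 match are printed with that of Hdc, which held no match and whose gene was lower in every Cry1 knockdown library than in any other, each 5′ to 3′ on the strand of its gene, with matches in capitals.
Sprr1a promoter, chr3:92485832-92486131, minus strand: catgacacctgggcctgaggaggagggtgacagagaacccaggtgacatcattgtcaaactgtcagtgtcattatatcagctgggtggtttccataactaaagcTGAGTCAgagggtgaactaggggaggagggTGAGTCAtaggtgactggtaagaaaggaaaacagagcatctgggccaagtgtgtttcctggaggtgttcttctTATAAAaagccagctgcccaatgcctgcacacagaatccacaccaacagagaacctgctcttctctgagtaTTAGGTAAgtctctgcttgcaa
Cpa4 promoter, chr6:30568119-30568418, plus strand: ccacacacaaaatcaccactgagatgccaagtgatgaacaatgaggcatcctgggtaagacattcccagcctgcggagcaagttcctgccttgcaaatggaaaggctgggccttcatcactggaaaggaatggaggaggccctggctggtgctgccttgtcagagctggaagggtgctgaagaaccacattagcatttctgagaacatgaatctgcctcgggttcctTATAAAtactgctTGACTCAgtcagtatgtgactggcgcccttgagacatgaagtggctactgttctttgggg
Cldn15 promoter, chr5:136967619-136967918, plus strand: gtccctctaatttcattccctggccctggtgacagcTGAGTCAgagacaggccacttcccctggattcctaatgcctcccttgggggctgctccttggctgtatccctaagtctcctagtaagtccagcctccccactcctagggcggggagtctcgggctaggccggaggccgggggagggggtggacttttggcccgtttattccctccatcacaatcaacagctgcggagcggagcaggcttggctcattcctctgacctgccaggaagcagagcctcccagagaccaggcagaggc
Hdc promoter, chr2:126618629-126618928, minus strand: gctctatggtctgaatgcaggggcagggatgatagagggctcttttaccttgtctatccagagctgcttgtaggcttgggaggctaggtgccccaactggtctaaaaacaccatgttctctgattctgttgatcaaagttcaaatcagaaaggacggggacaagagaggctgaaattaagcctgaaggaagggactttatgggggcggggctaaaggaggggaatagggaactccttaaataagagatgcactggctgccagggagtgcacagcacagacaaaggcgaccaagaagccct
Counting the RefSeq start as 0, the AP-1 matches of Sprr1a begin at -146 and -116, its TATA box at -43 and its D-box at 29. The Cpa4 matches lie closer to the start, with the TATA box at -23 and the AP-1 match at -10, and the AP-1 match of Cldn15 begins at -214. In the promoters not printed, the TATA match of Kitl begins at -25. That of Vtn lies far from the start, with overlapping matches on the 2 strands at -137 and -135.

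Betacellulin, the product of Btc, is a ligand of the EGF receptor and ERBB4. Btc had 5, 0 and 1 counts in the Cry1 knockdown at days 0, 3 and 5, or 0.739, 0 and 0.176 CPM. The control had 39, 3 and 7 counts (5.71, 0.503 and 1.30 CPM) and the Cry2 knockdown 28, 6 and 4 counts (4.51, 1.27 and 0.755 CPM). Each Cry1 knockdown library was the lowest of its day, and the day 0 libraries of the other 2 genotypes held most of the counts. Over the 3 days the 6 counts in the Cry1 knockdown stood against 49 in the control, 8.28-fold lower (95% counting interval 3.54 to 23.7), and against 38 in the Cry2 knockdown, 7.20-fold lower (3.02 to 20.8). At day 3, where the Cry1 knockdown had no count, the level was at least 2.55-fold lower than in the Cry2 knockdown when set to the floor of 3 counts, and the 95% interval with the counting error of both libraries began at 1.5.

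Stem cell factor, the product of Kitl, is the ligand of the receptor KIT. Kitl was at 18.8, 12.9 and 18.9 CPM in the Cry1 knockdown and at 45.5, 26.6 and 36.4 CPM in the control. It was at 30.8, 15.2 and 16.8 CPM in the Cry2 knockdown. The highest Cry1 knockdown library was below the lowest control library, while the libraries of both knockdowns overlapped. Summed over days, Kitl was 2.17-fold lower in the Cry1 knockdown than in the control (1.89 to 2.49). The Cry2 knockdown was also lower than the control, 1.69-fold (1.48 to 1.93). Between the knockdowns the order changed with the day, since the Cry1 knockdown was lower at days 0 and 3 and higher at day 5, with intervals that include no difference at day 3 (0.841 to 1.64) and day 5 (0.664 to 1.19). Kit, the gene of the receptor, had no count in any of the 9 libraries.

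Hdc encodes histidine decarboxylase, the enzyme that makes histamine from histidine. Its counts in the Cry1 knockdown were 8, 15 and 19 at days 0, 3 and 5, which are 1.18, 2.49 and 3.35 CPM. In the control they were 24, 80 and 55 (3.51, 13.4 and 10.2 CPM), and in the Cry2 knockdown 35, 111 and 110 (5.64, 23.5 and 20.8 CPM). No Cry1 knockdown library reached the lowest library of either other genotype, and the Cry2 knockdown was the highest of its day each time. The summed fold was 3.84 below the control (2.72 to 5.53) and 6.93 below the Cry2 knockdown (4.98 to 9.85). The gap to the control was widest at day 3, at 5.39-fold (3.08 to 10.1).

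Cpa4 encodes a carboxypeptidase that removes amino acids from the C-terminal end of peptides. It had 2, 9 and 4 counts in the Cry1 knockdown (0.296, 1.49 and 0.706 CPM), 3, 3 and 15 in control cells (0.439, 0.503 and 2.77 CPM) and 5, 34 and 76 in the Cry2 knockdown (0.805, 7.18 and 14.3 CPM). Against the control, Cpa4 was not lower throughout: at day 3 the Cry1 knockdown was the higher of the pair, and the summed fold below the control was 1.42 with an interval from 0.698 to 2.96. The difference that selected it lay against the Cry2 knockdown, 8.72-fold over the 3 days (5.07 to 16.1) and 20.3-fold at day 5 (7.62 to 76.5). The Cry2 knockdown in turn was 6.14 times the control. The fitted log2 difference between the Cry1 knockdown and the control was -0.44, and it turned to 0.57 without the Cry1 knockdown library of day 5 and to 0.11 without the control library of day 5.

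Vitronectin, the product of Vtn, binds integrins and the plasminogen activator inhibitor PAI-1. Vtn had 0, 1 and 0 counts in the Cry1 knockdown, 0, 7 and 9 in the control and 2, 18 and 11 in the Cry2 knockdown. These are 0, 0.166 and 0 CPM, 0, 1.17 and 1.67 CPM, and 0.322, 3.80 and 2.08 CPM. The gene was near the floor in all genotypes at day 0, where no fold is given, and was detected at days 3 and 5 in the control and the Cry2 knockdown. The 1 count in the Cry1 knockdown against 16 in the control was a ratio of 16.2 with a wide interval (2.52 to 680). At day 5, with the absent count set to the floor of 3 counts, the Cry1 knockdown was at least 3.15-fold lower than the control and at least 3.92-fold lower than the Cry2 knockdown. With the counting error of both libraries included, the 95% intervals of these folds began at 2.07 and 2.68.

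Emilin2 encodes an elastin microfibril interface protein of the extracellular matrix and had the highest summed counts of the 9 genes. It was at 65.3, 46.3 and 74.5 CPM in the Cry1 knockdown, 107, 71.7 and 114 CPM in control cells, and 87.5, 65.3 and 94.5 CPM with Cry2 knocked down. The 3 genotypes kept the same order on each day, control highest and Cry1 knockdown lowest, but the Cry1 knockdown at day 5 was above the control at day 3, so the groups overlapped. With 279 to 728 counts a library, the folds were precise: 1.63, 1.55 and 1.53 below the control on days 0, 3 and 5 and 1.57 summed (1.46 to 1.69). Against the Cry2 knockdown the summed fold was 1.35 (1.24 to 1.46).

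Add2 encodes beta-adducin, which caps actin filaments and joins them to spectrin. The Cry1 knockdown held 151, 9 and 9 counts (22.3, 1.49 and 1.59 CPM), the control 424, 111 and 36 (62.0, 18.6 and 6.66 CPM) and the Cry2 knockdown 663, 85 and 44 (107, 18.0 and 8.30 CPM). The Cry1 knockdown was lowest on each day, and its day 0 library, high like those of the other genotypes, overlapped their later days. On day 0 the fold below the control was 2.78 (2.30 to 3.37), on day 3 it was 12.5 (6.33 to 28.0) and on day 5 it was 4.19 (1.98 to 9.90). Against the Cry2 knockdown it was 4.79, 12.0 and 5.23. The counting intervals of days 0 and 3 did not overlap in either comparison, while the spread between cultures of the same day was not measured and the interaction test given below did not pass.

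Cldn15 encodes a claudin that forms paracellular cation channels in tight junctions. It had 6, 6 and 4 counts in the Cry1 knockdown, 35, 18 and 11 in the control and 24, 8 and 6 in the Cry2 knockdown. The CPM values were 0.887, 0.995 and 0.706, then 5.12, 3.02 and 2.04, then 3.87, 1.69 and 1.13. The Cry1 knockdown stayed near 1 CPM, below every library of both other genotypes, which were highest at day 0. Summed, it was 4.06-fold below the control (2.32 to 7.52) and 2.70-fold below the Cry2 knockdown (1.47 to 5.19). At days 3 and 5 the intervals against the Cry2 knockdown reached from 0.517 to 5.94 and from 0.380 to 7.73, and at day 5 the interval against the control reached from 0.854 to 12.4, so these differences were not detectable at this depth.

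Sprr1a encodes a small proline-rich protein of the cornified envelope of squamous epithelia that is also known from injured neurons and stressed heart muscle. The Cry1 knockdown held 112, 14 and 12 counts (16.6, 2.32 and 2.12 CPM), the control 363, 78 and 30 (53.1, 13.1 and 5.55 CPM) and the Cry2 knockdown 268, 14 and 12 (43.2, 2.96 and 2.26 CPM). All genotypes were highest at day 0. The Cry1 knockdown was 3.46-fold below the control over the 3 days (2.86 to 4.21) and lower on each. Against the Cry2 knockdown it was 2.61-fold lower at day 0 (2.08 to 3.28), and at days 3 and 5 both knockdowns held the same counts, with ratios of 1.27 (0.563 to 2.88) and 1.07 (0.440 to 2.60). Sprr1a in the Cry2 knockdown was 4.42-fold below the control at day 3 (2.48 to 8.46) and 1.23-fold below it at day 0 (1.05 to 1.45).

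**Figure D1:**
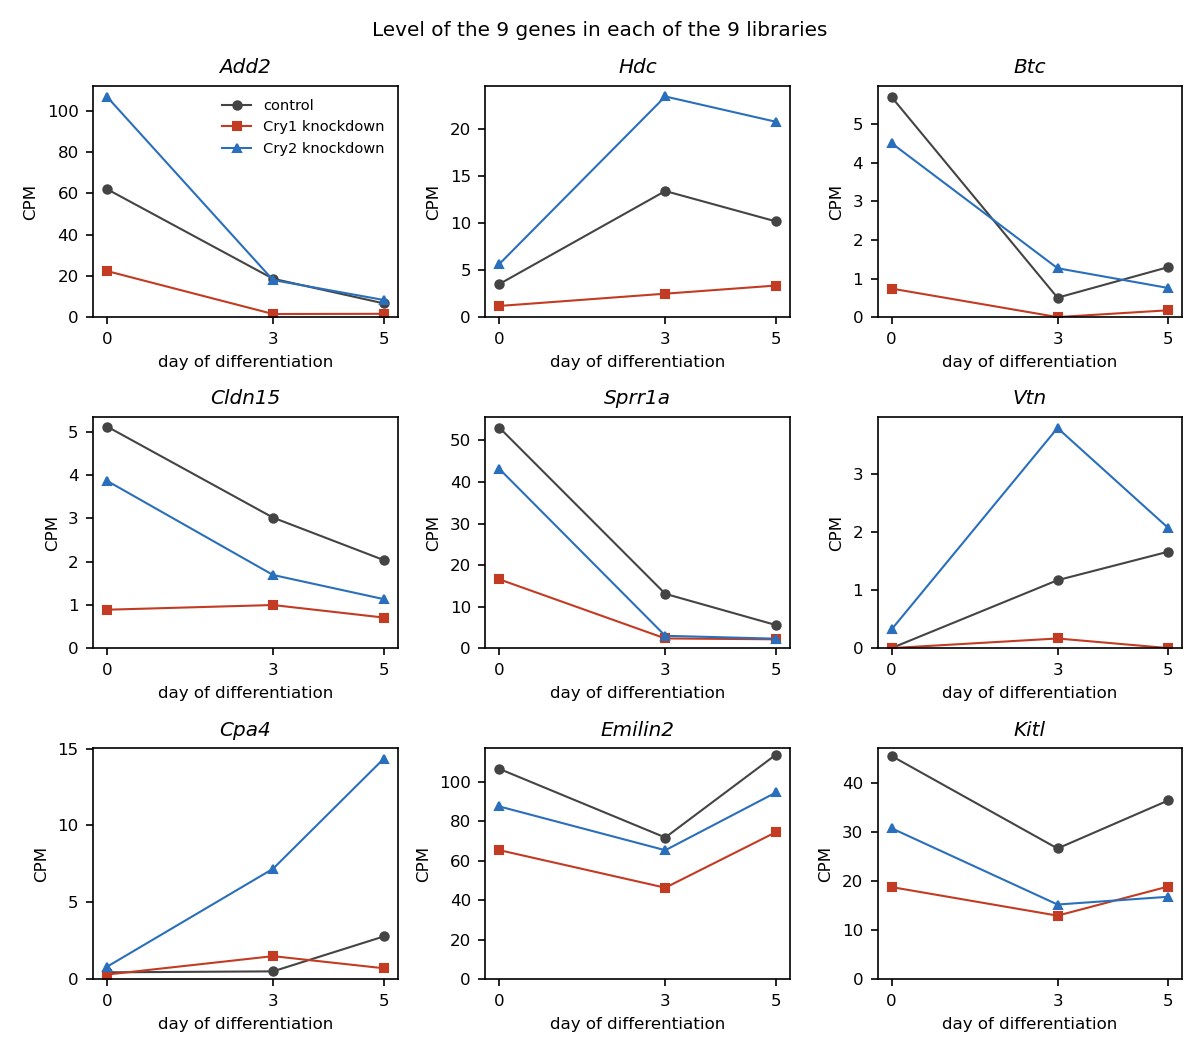
Level of the 9 genes in CPM (vertical axis, linear, from 0) against the day of differentiation (0, 3 or 5), with 1 point for each of the 9 libraries and lines joining the 3 libraries of a genotype. The Cry1 knockdown is lowest at every day for Add2, Hdc, Btc, Cldn15, Sprr1a and Emilin2, while Cpa4 is above the control at day 3 and Kitl above the Cry2 knockdown at day 5.

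Set side by side, the 9 genes did not differ from the controls in the same way. The highest Cry1 knockdown library was below the lowest control library for 3 of 9 genes (Hdc, Cldn15 and Kitl), where 3.53% of the 12752 genes tested had such a pattern. The Cry1 knockdown was below the control on all 3 days for 7 of 9 (20.0% of genes tested), Vtn and Cpa4 being the exceptions. Against the Cry2 knockdown, 4 of 9 did not overlap (Hdc, Btc, Cldn15 and Vtn; 4.49% of genes tested), and 8 of 9, all but Kitl, were lower on all 3 days (22.9%). The additive fit of genotype and day cannot test the 7 genes that passed the filter on low counts, because the same contrasts selected them. As a description only, 6 of 7 were past an adjusted p of 0.05 for lower values than in the control (1.69% of genes tested), and 4 of 7 against the Cry2 knockdown (4.25%). These counts follow from how the genes were selected, and nothing is read from them. Btc and Vtn did not pass the filter and are not among the 12752 genes behind these percentages. Their separation from the Cry2 knockdown rests on few counts. For Btc the closest libraries held 5 counts against 4 (0.739 against 0.755 CPM), and for Vtn 1 count against 2. Cldn15 was separated as narrowly, with 6 counts in each of the closest libraries (0.995 against 1.13 CPM). The 8 genes lower on all 3 days include Sprr1a, whose counts equalled those of the Cry2 knockdown at day 3 (14 each) and day 5 (12 each). They also include Vtn, with 0 counts against 2 at day 0.

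By day, the size of the difference varied among the genes. The median log2 difference of the 9 genes between the Cry1 knockdown and the control, computed with a prior count of 1, was -1.46, -2.02 and -1.55 on days 0, 3 and 5, and at day 3 single genes ran from -3.50 to 1.31. Against the Cry2 knockdown it was -1.71, -2.16 and -1.42. The corresponding medians over all genes tested were within 0.0303 of 0. The ratio of the Cry2 knockdown to the control is a description too, since the selection used the values of both. The Cry2 knockdown, which shares the control libraries, had medians of -0.28, -0.05 and -0.27 against the control. Its own values split the genes: summed over days, Cpa4 was at 6.14, Vtn at 2.17, Hdc at 1.81 and Add2 at 1.56 times the control, while Btc was at 0.870, Emilin2 at 0.857, Sprr1a at 0.70, Cldn15 at 0.666 and Kitl at 0.592 times it. The last 5 of these were below the control in both knockdowns, with counting intervals in the Cry2 knockdown that include no difference for Btc and Cldn15. The first 4 were above it in the Cry2 knockdown and below it in the Cry1 knockdown, where the interval of Cpa4 includes no difference.

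**Figure D2:**
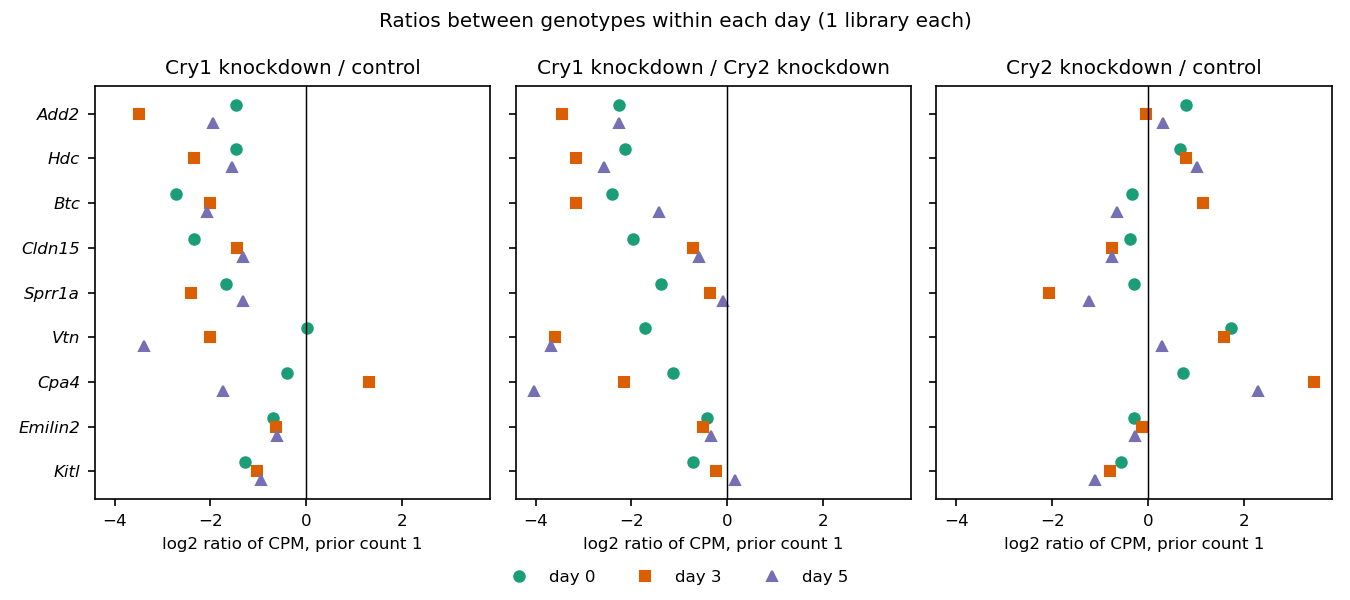
Log2 ratio of CPM with a prior count of 1 (horizontal axis) for each of the 9 genes between 2 genotypes on the same day, 1 library each, with days 0, 3 and 5 as circles, squares and triangles and the line at no difference. Points in the 2 left panels lie left of the line apart from Cpa4 at day 3 and Vtn at day 0 (no count in either library) against the control and Kitl at day 5 against the Cry2 knockdown, and points in the right panel lie on both sides.

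The change over days of differentiation did not enter the selection and could be tested, over 3 genotypes with 4 residual degrees of freedom. From day 0 to day 3, 4 of the 7 genes tested fell (26.2% of all genes tested fell) and 2 rose (25.6% rose). Sprr1a fell by 2.70 ± 0.29 (SE) on the log2 scale (edgeR adjusted p = 8.48e-05) and Add2 by 2.42 ± 0.25 (7.08e-05), in 3 of 3 genotypes each. Kitl fell by 0.79 ± 0.15 (adjusted p = 0.00249) and Emilin2 by 0.50 ± 0.08 (0.000645), again in 3 of 3 genotypes. Hdc rose by 1.84 ± 0.22 (adjusted p = 0.000152) and Cpa4 by 2.39 ± 0.68 (0.0162). Cldn15 had a change of -0.73 ± 0.33 that did not pass (0.095), except without the Cry1 knockdown library of day 0 (0.0493). The call on Cpa4 was lost without the Cry2 knockdown library of day 0 (0.235) or of day 3 (0.0946). With genes filtered by the model's own design, a setting added after the data were seen, Btc also changed, by -2.68 ± 0.49 (edgeR adjusted p = 0.00178), and Vtn by 3.76 ± 0.79 (0.00361). Both passed that filter through libraries of the days where they were high, so it favoured these changes.

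Between days 3 and 5 fewer of the genes changed. Emilin2 rose by 0.63 ± 0.08 (edgeR adjusted p = 0.00105), and its level at day 5 was above that at day 0 in each of the 3 genotypes. Add2 fell further, by 1.15 ± 0.33 (0.0286). Thus 1 of 7 was higher (15.1% of all genes tested) and 1 of 7 lower (13.5%). The call on Add2 was lost without the Cry1 knockdown library of day 5 (0.0651), either later Cry2 knockdown library (0.0717 for day 3 and 0.113 for day 5) or either later control library (0.13 for day 3 and 0.0879 for day 5). The other 5 did not pass, with Kitl at 0.39 ± 0.16 (0.0972, and 0.0382 without the Cry2 knockdown library of day 5), Sprr1a at -0.83 ± 0.39 (0.145, but 0.0486 without the Cry2 knockdown library of day 3 and 0.0397 with no filter on low counts), Cpa4 at 0.87 ± 0.49, Cldn15 at -0.56 ± 0.39 and Hdc at -0.15 ± 0.19.

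**Figure D3:**
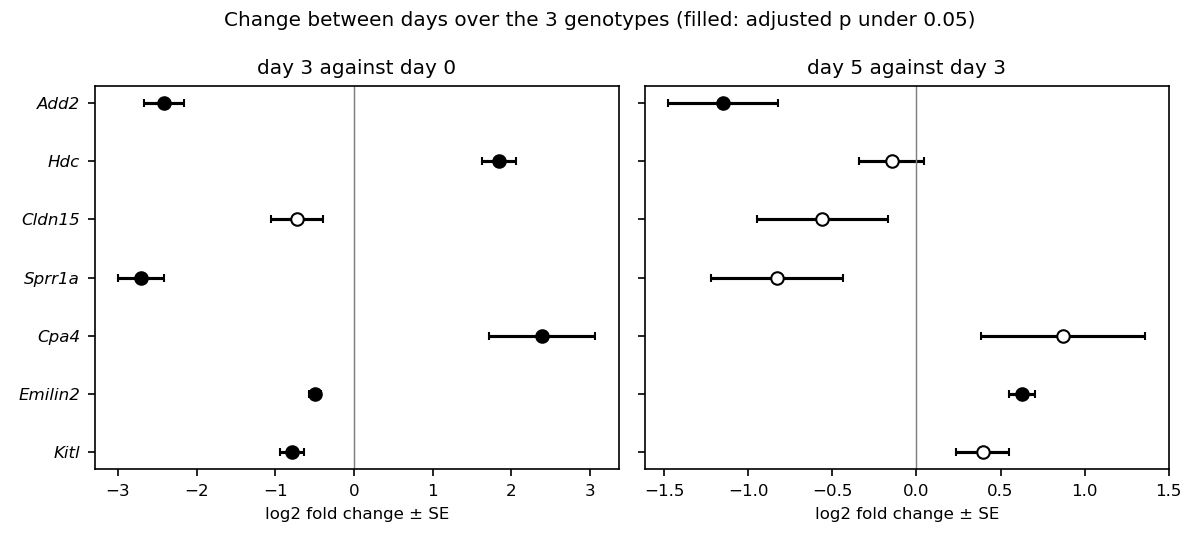
Log2 fold change between days over the 3 genotypes (horizontal axis) for the 7 genes that passed the filter, with bars for the SE of the edgeR additive fit and filled points for an adjusted p under 0.05. From day 0 to day 3 Sprr1a and Add2 lie at -2.70 and -2.42 and Cpa4 and Hdc at 2.39 and 1.84, and from day 3 to day 5 only Add2 and Emilin2 are filled.

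Whether the change from day 0 to days 3 and 5 differed between the Cry1 knockdown and the others was tested as an interaction, which is not the mean difference the selection used, with 2 residual degrees of freedom. None of the 7 genes passed against the control, nor did any of the 12752 genes tested (0.0%) in edgeR, where 636 genes had an unadjusted p under 0.05 and DESeq2 called 15 genes and none of the 7. Add2 was the 1 gene of the 7 with an unadjusted p under 0.05, falling by 1.51 ± 0.44 more in the Cry1 knockdown on the log2 scale, with an adjusted p of 0.844. Against the Cry2 knockdown, 0 of the 7 and 9 of all genes tested passed (0.0706%), 906 genes had an unadjusted p under 0.05, and DESeq2 called 42 genes and none of the 7. Kitl had an interaction of 0.69 ± 0.26 there (adjusted p = 0.684) and Sprr1a of 1.14 ± 0.48 (0.701). A p that misses the threshold with so few degrees of freedom does not show that the responses were alike.

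Gene levels can be compared between genes only per length. In CPM per kilobase of exon, averaged over the 3 control libraries, Sprr1a was at 29.7, Emilin2 at 17.7, Kitl at 6.12, Add2 at 2.87, Cldn15 at 1.60, Hdc at 1.41, Btc at 0.553, Vtn at 0.466 and Cpa4 at 0.452. Emilin2 and Kitl were the only neighbours in this order whose 3 control libraries did not overlap.

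Relatives of the 9 genes, listed by family or pathway, were tested in the same contrast of the Cry1 knockdown with the control. Of 168 genes listed, 86 were tested, 2 were higher (0.894% of all genes tested were) and 2 lower (1.69%), and the median log2 fold change of the 86 was -0.08, against 0.01 over all genes tested. A negative value was found for 55 of the 86 relatives, but only 2 were called lower. The share of negative values over all genes tested was not counted, so nothing is read from this or other counts of negative values. Among 17 genes of the membrane skeleton around adducin, 1 fell, Epb41l1, a protein 4.1 family member, by 0.59 ± 0.09 (edgeR adjusted p = 0.0169). It no longer passed when the Cry1 knockdown at day 0 or 3, or the control at day 0 or 5, was left out (up to 0.0794). Among 9 claudins and tight junction genes, Cldn2 was higher by 2.12 ± 0.45 (0.0476), the opposite sign to Cldn15, and passed in 1 of 9 fits that left out 1 library, the one without the Cry2 knockdown at day 0 (up to 0.255 in the others). Of 18 elastic fibre genes, 13 had a negative value and 1 passed, Ltbp3, which binds latent TGF-beta, by -0.38 ± 0.07 (0.0301, and not passing in 7 of 9 such fits, up to 0.134). In this list 11 of 18 had an unadjusted edgeR p under 0.05 in either direction, against 2437 of the 12752 genes tested. Of 11 genes around KIT and its related receptors, Pdgfb, a ligand of the PDGF receptors, was higher by 1.06 ± 0.17 (0.0203) and passed in 3 of 9 such fits, those without a Cry2 knockdown library.

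In the remaining lists no gene passed. Histamine genes other than Hdc were mostly below the filter, with 2 of 12 tested: Slc18a2, a vesicular amine transporter, at -0.67 ± 0.32 (edgeR adjusted p = 0.290) and Maoa, an amine oxidase, at -0.14 ± 0.08 (0.404). Of the EGF family and its receptors 11 were tested, with Egfr, a receptor of betacellulin, at -0.31 ± 0.11 (0.151) and Nrg1, another ligand of the family, at -0.43 ± 0.21 (0.306). Of 14 vitronectin receptors and partners, Plau was at 0.33 ± 0.14 (0.228) and Plat at -0.24 ± 0.10 (0.242), both plasminogen activators. The 4 carboxypeptidases and inhibitors tested included Cpq at -0.34 ± 0.11 (0.158) and Cpd at -0.17 ± 0.13 (0.517). None of the 19 other cornified envelope genes passed the filter, 9 of them had no count in any library, and their sum stayed between 0.838 and 3.06 CPM, so Sprr1a was measured while its relatives stayed near the floor.

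**Figure D4:**
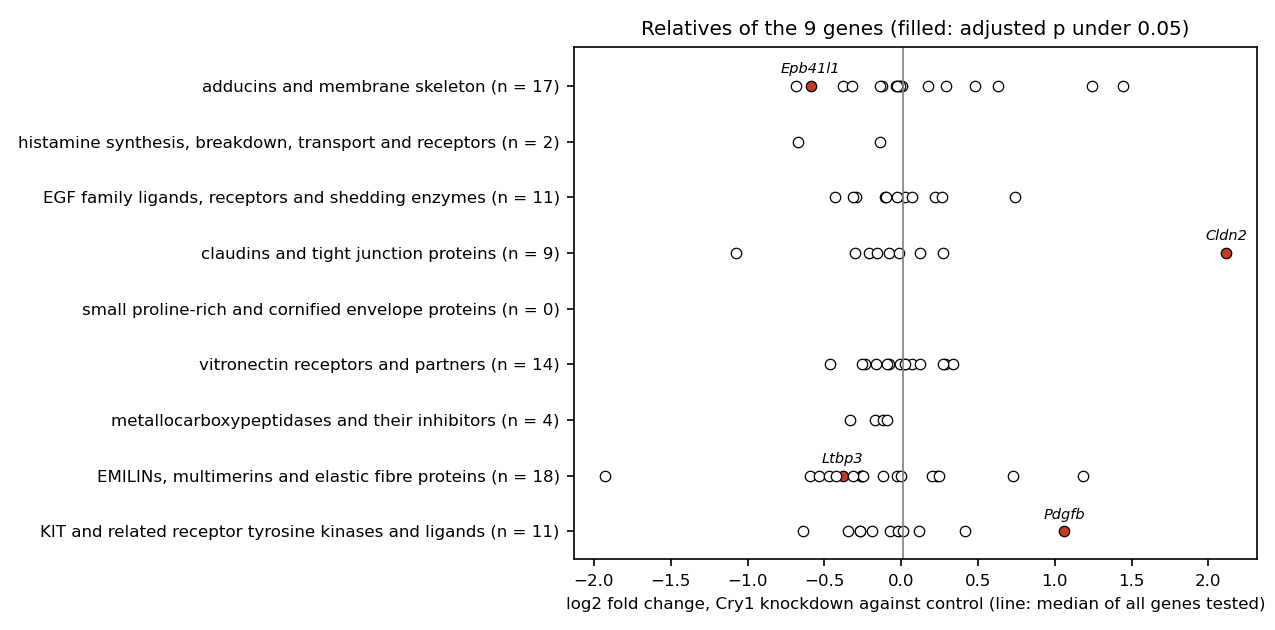
Log2 fold change between the Cry1 knockdown and the control (horizontal axis) for each tested relative of the 9 genes, by list (vertical axis, with the number tested), with the line at the median of all genes tested and filled points for an adjusted p under 0.05. The points spread on both sides of the line, with Epb41l1 and Ltbp3 filled on the lower side and Cldn2 and Pdgfb on the higher side.

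Several of the 9 genes are known from cells other than muscle, so markers of those cells were examined. Mast cells make histamine with Hdc and store a relative of Cpa4, and of 10 mast cell markers Kit, Tpsb2 and Fcer1a had no count. Nearly all of their sum was Gata2, a gene that other cells express too, which alone was at 31.0, 13.9 and 12.3 CPM in the Cry1 knockdown. The sum was 13.1 to 31.6 CPM in the Cry1 knockdown, 12.9 to 26.3 in the control and 12.7 to 28.7 in the Cry2 knockdown. Vtn is a liver product, and 8 of 10 hepatocyte markers had no count, with a sum of at most 2.08 CPM in any library. For Sprr1a and Cldn15, 10 keratinocyte and epithelial markers summed to 13.7 to 55.7 CPM in the Cry1 knockdown, 24.8 to 67.3 in the control and 24.9 to 46.2 in the Cry2 knockdown, with Krt5 and Krt18 at 0. Most of that sum was Trp63, at up to 53.6 CPM, and Krt19, at up to 29.5 CPM, and Cdh1 and Krt14 reached 9.62 and 6.97 CPM. In that list Krt19 was lower in the Cry1 knockdown, by 1.33 ± 0.28 on the log2 scale (edgeR adjusted p = 0.0485), at 9.76, 2.99 and 0.706 CPM on days 0, 3 and 5 against 28.7, 4.52 and 2.96 CPM in the control, a call lost without any 1 of the 9 libraries (up to 0.254). Of the 12 muscle markers, Ckm, the muscle creatine kinase, was higher by 0.84 ± 0.18 (0.0459) and Pax7, a marker of muscle stem cells, by 0.92 ± 0.20 (0.0487), and 1 of 12 had a negative value. Ckm passed in 2 of 9 and Pax7 in 1 of 9 fits that left out 1 library. These 3 marker genes were named after their values were seen, and the part of these markers in the differences of the 9 genes was not tested. The sums were 7.30 to 12.6 CPM for macrophage and blood markers and 2.05 to 4.99 CPM for endothelial markers over the 9 libraries.

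Of 95 tested genes within 500 kb of one of the 9 in the genome, 0 were called lower in the Cry1 knockdown than in the control (1.69% of all genes tested were) and 2 higher (0.894%), so both counts were near the share over all genes. The higher genes were Parm1 near Btc and Traf4 near Vtn, which are named after their values were seen. Among the 9 genes themselves, log2 CPM values over the 9 libraries ran most alike for Hdc and Vtn (Pearson r = 0.931), Add2 and Btc (0.895) and Add2 and Sprr1a (0.869), and most unlike for Sprr1a and Cpa4 (-0.632). Hdc and Vtn were higher after day 0 and highest in the Cry2 knockdown, apart from Vtn in the Cry1 knockdown, with 0, 1 and 0 counts. Add2, Btc and Sprr1a were highest at day 0. These values are descriptions, since the genes were selected on the same genotypes and the libraries share day, genotype and depth.

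Outside the 9, the gene most like each was sought among 11411 named genes of at least 1 CPM on average. The highest r of so many genes over 9 libraries is high through the search itself. A pattern of day and genotype shared with the gene found follows from it too. The values are therefore descriptions, and for Btc and Vtn they rest on few counts. The closest were Lrch2 for Add2 (r = 0.985), the orphan nuclear receptor gene Rorb for Sprr1a (0.983), the keratin gene Krt80 for Hdc (0.979) and the interleukin 6 receptor gene Il6ra for Emilin2 (0.977). Lower values were reached by Sestd1 for Btc (0.964), the adhesion scaffold gene Nedd9 for Cldn15 (0.963), the p38 kinase gene Mapk12 for Cpa4 (0.959), the plasminogen receptor gene Plgrkt for Vtn (0.957) and the phosphatase gene Ppm1m for Kitl (0.916). Krt80, at 33.3, 42.5 and 63.3 CPM in the Cry1 knockdown, 62.8, 113 and 110 in control cells and 67.5, 127 and 136 with Cry2 knocked down, was at higher levels than Hdc and, like it, lowest at day 0 in each genotype and lowest in the Cry1 knockdown on each day. Lrch2 was at 23.7, 7.30 and 6.88 CPM in the Cry1 knockdown against 45.4, 17.3 and 14.6 in control cells and 54.4, 22.2 and 12.8 with Cry2 knocked down, with the drop after day 0 seen for Add2.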

How the data were processed

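PolyA RNA of 9 C2C12 libraries was measured, 1 for each of 3 genotypes and 3 days. The deposited values are raw counts per gene, and the submitters' processing notes name CASAVA 1.8, HISAT2 2.0.2, Subread and featureCounts 1.4.6 with mm10. Library kits were TruSeq RNA v2 per the labels' protocols, which do not mark strand. Files of different libraries held no identical counts, and nothing in the labels says whether the libraries of a genotype came from separate cultures, so p-values measure only the spread between these libraries.

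Counts were normalised with TMM and tested with edgeR 4.0.16 (limma 3.58.1, R 4.3.3) by quasi-likelihood F tests over the 12752 genes kept by filterByExpr by genotype, and a gene was called at a Benjamini-Hochberg adjusted p under 0.05. The additive fit had terms for genotype and day, and the response fit had genotype by stage (day 0 against later) with a shared day 5 term. The SE was the absolute log2 fold change over the square root of F. Folds of single days or summed counts carry exact 95% counting intervals, and a count of 0 was set to 3 counts for bounds. Exons, overlaps and 50-base words shared with other transcripts came from GENCODE M21. Python 3.11.15 with numpy 2.4.6, pandas 2.3.3, scipy 1.17.1 and matplotlib 3.10.9 did the rest.

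The 9 genes, the related and marker lists and the motifs were chosen with earlier results of these data known. Named genes were the 9, the called genes of each related list (up to 4, or where none was called the 2 of lowest p) and the named gene most alike each of the 9. Alternatives were RLE size factors, no filter, a filter of 1 CPM in 3 libraries, the design's own filter (added after the data were seen), DESeq2 1.42.0, fits without the genotype or day term, only the 6 libraries compared and each library left out. No library was left out otherwise.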

Additional observations from a re-analysis of the deposited data

How the results depend on the processing

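Over all settings, 571 values of single genes kept their direction and their side of the threshold, 13 lost a call, 4 gained one, 2 moved and 9 changed sign. For day 3 against day 0, 6 of 7 genes were called, 2 of 7 without the genotype term, and 6 to 9 of the 7 to 9 tested in the other settings. For day 5 against day 3 the 2 calls among the 7 became 3 with no filter, 0 without the genotype term and 1 to 2 when 1 library was left out, and the count over all genes, 3638, became 2369 with DESeq2, 2190 without the genotype term and 2045 to 3739 without 1 library. For the response against the control, 0 genes became 72 with no filter, 15 with DESeq2 and 0 to 31 without 1 library. For that against the Cry2 knockdown, 9 became 133 with no filter, 15 with the design's own filter, 42 with DESeq2 and 3 to 74 without 1 library. None of these calls was on the 7 genes, but response values of 3 of them, none called in any setting, changed sign. Against the control, Sprr1a went from -0.36 to 0.14 without the Cry1 knockdown library of day 3 and 0.23 without the control library of day 3, and Cpa4 from 0.12 to -1.11 and -0.47. Leaving out 1 library gave a range of -0.74 to 0.23 for Sprr1a and of -1.11 to 1.35 for Cpa4. Emilin2, compared with the Cry2 knockdown, went from 0.0046 to -0.0076 with no filter, -0.041 without the Cry1 knockdown library of day 5 and -0.069 without the Cry2 knockdown library of day 5, and was at most 0.078 without 1 library. Response fits without a day 0 library gave no value for that library's genotype. The median log2 difference of the 7 genes from the control, -1.90, was -1.76 without the day term and -2.03 to -1.47 without 1 library, and that from the Cry2 knockdown, -1.33, was -1.55 to -0.86. The 4 related genes called became 17 with no filter, 0 without the day term and 0 to 5 without 1 library. Cpa4 against the control was at -1.25 to 0.57 without 1 library and turned from -0.44 to 0.57 without the Cry1 knockdown library of day 5 and to 0.11 without the control library of day 5. The causes were not tested. Counts of 0 to 39 for Btc and 0 to 18 for Vtn limit every value given for them. No paired analysis was possible because the labels carry no replicate numbers, and day is already a term of the fit.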
